A study of Mus musculus with 12 samples.

Results

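The genes described here are 10 members of the BCL2 family, chosen by name as the rows Bcl2l1, Mcl1, Bcl2l2, Bax, Bak1, Bid, Bad, Bcl2l11, Bbc3 and Pmaip1 among the 29937 genes of the deposited table. They were chosen by their known roles and not by a readout, though with earlier results of these data known. Of the 10, 9 passed the filter on low values (an FPKM of 1 or more in 3 or more of the 12 libraries) and were tested among 12036 genes. Pmaip1 did not pass and is described by its values only.

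BCL2 family proteins decide whether the outer mitochondrial membrane stays intact. The anti-apoptotic members MCL1, BCL-XL (Bcl2l1) and BCL-W (Bcl2l2) bind and restrain their relatives. The effectors BAX and BAK (Bak1) open pores in the membrane and release cytochrome c, and the BH3-only proteins BID, BIM (Bcl2l11), BAD, PUMA (Bbc3) and NOXA (Pmaip1) carry stress signals by binding the anti-apoptotic members, the effectors or both.

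Polyadenylated RNA of 4T1, an established mouse mammary carcinoma line labelled wild type and adherent, was sequenced in 12 libraries, with 3 in each of 4 groups. The groups are named OAP2, Oxa and APAP after the labelled treatment, and PBS after the titles of the controls, whose treatment label reads DMSO. The labels spell out none of the drug names and give no dose or time. They describe a cell line, whereas the design text speaks of xenografts grown from cells, so what else a sample could hold is not settled by the labels, and nothing says whether replicates came from separate cultures. The p-values below therefore measure only the spread between these libraries.

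Total counts per library lay between 64071751 and 71500487. The 5 epithelial markers were abundant everywhere, at a summed FPKM of 1004 to 1116 in OAP2, 963 to 1010 in Oxa, 862 to 886 in APAP and 803 to 1222 in PBS. The library PBS 2 stood apart. Its 5 red blood cell markers summed to 230 FPKM, against 0.07 to 0.37 in the other 11 libraries, and its 6 neutrophil markers to 62.8, against 0 to 0.23, with 3 of the 6 at 0 in all the others. The macrophage markers summed to 45.9 in PBS 1 and to 12.1 to 20.3 elsewhere. The 4 endothelial markers summed to at most 0.07, the 5 fibroblast markers to at most 2.09 and the 3 of 5 lymphocyte markers found in the table to at most 0.33. The red cell and neutrophil transcripts were high in PBS 2 only, and the macrophage transcripts were highest in PBS 1. Both libraries are in the PBS group, and the part of these transcripts in the results below was not tested. In bulk RNA, fewer cells of a type and less RNA per cell cannot be told apart. Results are given with all libraries, and for members whose call changes also without PBS 2. Other sizes can change without PBS 2 too and are not all given. An example is Cdkn1a in Oxa against PBS, at a log2 fold change of -0.74 with it and -0.61 without it. The means, sums and ratios of the PBS group include PBS 2.

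Among the 9 members tested, 3 differed among the 4 groups: Mcl1 (adjusted p = 0.00643), Bcl2l1 (0.0219) and Bcl2l11 (0.0482), by edgeR's quasi-likelihood test with Benjamini-Hochberg adjustment over all 12036 genes. The same test called 17.1% of all genes tested, and with 9 genes nothing is read about the family from the count of 3. Mcl1 was called in all 12 fits that left out 1 library each. Bcl2l1 lost its call without OAP2 1 (0.0848), Oxa 2 (0.0595) or Oxa 3 (0.051). Bcl2l11 kept its call without PBS 2 or OAP2 3 only, and its adjusted p reached 0.132 without Oxa 1. Without PBS 2 the test also called Bid (0.00495) and Bak1 (0.0382), 5 of 9 members where it called 35.7% of all genes.

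The upstream sequences of the 3 genes called are given as RefSeq holds them in GRCm38.p6, each 250 bases long, written 5′ to 3′ on the strand of the gene and ending at the base before a RefSeq start. They are shown so that the letters upstream of the genes that changed can be read beside their values. Capitals mark a match to the ETS core CCGGAAG or the FOXO core GTAAACA on either strand. The Mcl1 window lies on chromosome 3 at chr3:95658471-95658720 (plus strand), the Bcl2l1 window on chromosome 2 at chr2:152831729-152831978 (minus strand, the farthest upstream of 3 RefSeq starts) and the Bcl2l11 window on chromosome 2 at chr2:128125788-128126037 (plus strand, the farther upstream of 2).
Mcl1: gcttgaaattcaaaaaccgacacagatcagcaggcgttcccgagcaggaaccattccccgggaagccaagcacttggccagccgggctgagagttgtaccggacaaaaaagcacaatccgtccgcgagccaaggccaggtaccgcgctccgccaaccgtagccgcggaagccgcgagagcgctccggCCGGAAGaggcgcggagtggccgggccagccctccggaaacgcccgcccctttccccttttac
Bcl2l1: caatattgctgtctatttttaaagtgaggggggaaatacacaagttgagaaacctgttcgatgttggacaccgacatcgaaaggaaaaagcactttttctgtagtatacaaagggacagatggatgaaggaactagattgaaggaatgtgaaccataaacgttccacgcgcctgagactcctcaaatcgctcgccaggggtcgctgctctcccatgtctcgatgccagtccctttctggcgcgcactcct
Bcl2l11: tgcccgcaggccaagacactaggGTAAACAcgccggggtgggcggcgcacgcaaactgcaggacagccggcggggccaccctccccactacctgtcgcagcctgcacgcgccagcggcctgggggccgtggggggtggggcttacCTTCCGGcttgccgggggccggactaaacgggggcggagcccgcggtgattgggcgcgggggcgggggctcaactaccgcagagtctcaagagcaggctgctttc
In the Mcl1 window the ETS core stood on the gene's strand from position -63 to -57, counted back from the start. The Bcl2l11 window held a FOXO core from -227 to -221 and, on the opposite strand, an ETS core from -105 to -99. The Bcl2l1 window held neither, nor the GC box GGGCGG. Of 32851 windows of the same length over all genes, 3.17% held the FOXO core, 6.91% the ETS core and 32.7% the GC box on either strand. RefSeq gave 15 windows for 9 of the members, and windows of 1 gene can overlap. The FOXO core occurred in those of Bcl2l11 and Bbc3, the ETS core in those of Bcl2l11 and Mcl1, and the GC box in 10 windows of 7 members. The element bound by CHOP with ATF4, TGATGNAAT, was in none of the 15 and in 0.816% of all windows. A match in letters is a description of the sequence and was not tested for binding.

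Mcl1, which encodes a short-lived anti-apoptotic protein, was the most abundant member in every group. It lies on chromosome 3 from 95658788 to 95663176 (GRCm38, as are all gene positions given here). Its FPKM (the authors' unit, in which fragments are divided by transcript length and by library size) was 41.14, 40.86 and 41.99 in OAP2, 37.19, 35.84 and 37.59 in Oxa, 46.87, 48.61 and 48.37 in APAP, and 48.27, 46.02 and 53.57 in PBS. All Oxa libraries lay below all others, the OAP2 libraries lay between Oxa and the rest, and APAP and PBS overlapped.

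In Oxa libraries Mcl1 fell by 24.7% relative to PBS, a log2 fold change of -0.41 ± 0.08 (SE; 95% interval -0.58 to -0.24, adjusted p = 0.00691), with means of 36.9 ± 0.917 FPKM in Oxa and 49.3 ± 3.88 FPKM in PBS (SD, n = 3 each). This call held in all 20 alternatives tried, with adjusted p up to 0.0482 in the fit of only the 6 libraries compared. In OAP2 libraries the log2 fold change against PBS was -0.24 ± 0.08 and did not pass (adjusted p = 0.0886). Without PBS 2 it passed at -0.29 ± 0.07 (adjusted p = 0.0152), and it passed in DESeq2 with all libraries (0.0225). APAP against PBS gave 0.00 ± 0.08, with an interval of -0.16 to 0.17.

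Bcl2l1, which encodes BCL-XL and lies on chromosome 2 from 152780668 to 152831728, was lowest with OAP2. Its FPKM was 7.43, 9.10 and 8.57 in OAP2, 12.04, 13.99 and 12.77 in Oxa, 10.09, 11.33 and 10.82 in APAP, and 14.43, 10.03 and 14.73 in PBS. Every OAP2 library lay below every library of the other groups, and PBS 2 lay at the level of APAP, well below PBS 1 and PBS 3.

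Relative to PBS, Bcl2l1 fell by 35.3% in OAP2 libraries (log2 fold change -0.63 ± 0.14, 95% interval -0.93 to -0.32, adjusted p = 0.0212), with means of 8.37 ± 0.853 FPKM in OAP2 and 13.1 ± 2.63 FPKM in PBS. Without PBS 2 the fall was larger, at -0.79 ± 0.11 (adjusted p = 0.000601). The call was lost without OAP2 1 (0.0962), PBS 1 (0.0822) or PBS 3 (0.0684), with no filter on low values (0.0617) and in the fit of only the 6 libraries compared (0.181). Oxa against PBS gave -0.00 ± 0.14 for Bcl2l1, and APAP against PBS gave -0.24 ± 0.14 (adjusted p = 0.647), or -0.40 ± 0.11 without PBS 2 (0.22).

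The difference between the drugs was tested directly. Relative to Oxa libraries, Bcl2l1 fell by 35.1% in OAP2 libraries, at a log2 fold change of -0.62 ± 0.14 (adjusted p = 0.0124), with means of 8.37 ± 0.853 FPKM in OAP2 and 12.9 ± 0.985 FPKM in Oxa. That contrast does not use the PBS libraries other than for the shared spread. Its call was lost without OAP2 1 (0.0577) or Oxa 2 (0.0718). Against APAP the OAP2 value was -0.39 ± 0.14, which did not pass with all libraries (0.213) and passed without PBS 2 (-0.39 ± 0.10, 0.0321).

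Bcl2l2, which encodes BCL-W (chromosome 14, 54883377 to 54888234), passed no test with or without PBS 2. Its FPKM was 10.25, 10.35 and 7.06 in OAP2, 8.60, 7.90 and 8.32 in Oxa, 9.63, 9.26 and 10.06 in APAP, and 9.15, 8.51 and 10.85 in PBS. OAP2 3 was the lowest of the 12 libraries and the groups overlapped, apart from Oxa against APAP. The value of Bcl2l2 is uncertain because the predicted gene Gm20521, on the same strand, covers 4794 of its bases. This predicted gene runs on over Pabpn1. Gm20521 was listed at 0 in 10 libraries and at 8.47 FPKM in Oxa 2 and 6.69 FPKM in PBS 2. In those 2 libraries Bcl2l2 had its lowest value of the group, and so did Pabpn1, at 26.62 FPKM in Oxa 2 and 29.97 FPKM in PBS 2.

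**Figure D1:**
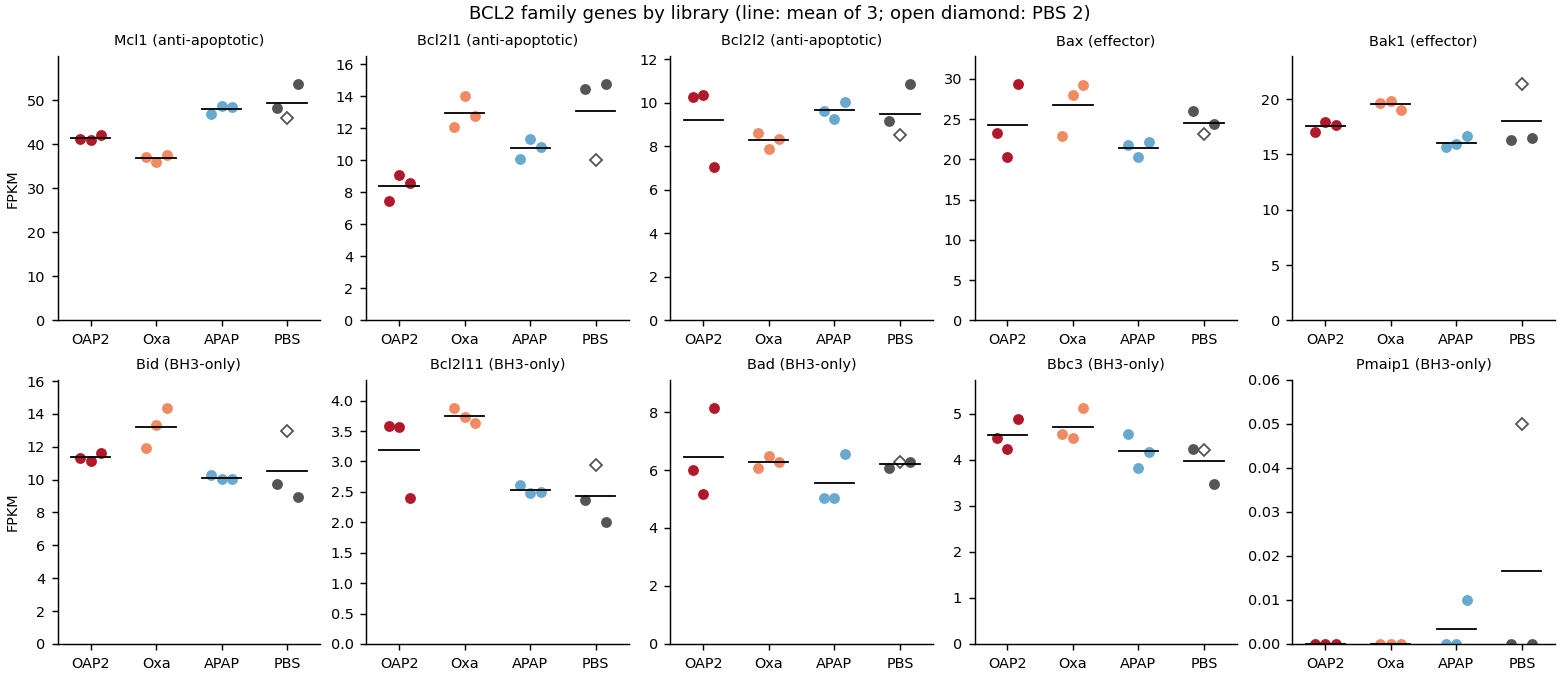
FPKM of each of the 10 members in each library, with OAP2, Oxa, APAP and PBS from left to right on the x axis; points are libraries, lines are group means of 3 and the open diamond is PBS 2. Every OAP2 library lies below all others for Bcl2l1 and every Oxa library below all others for Mcl1, while PBS 2 is the highest PBS library for Bak1, Bid and Bcl2l11.

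The effectors showed no change past the test with all libraries. Bax (chromosome 7, 45461697 to 45466898) had an FPKM of 23.28, 20.30 and 29.31 in OAP2, 22.95, 28.00 and 29.24 in Oxa, 21.78, 20.25 and 22.15 in APAP, and 25.96, 23.15 and 24.41 in PBS. The OAP2 libraries spanned nearly the whole range of the other groups. The log2 fold change of Bax against PBS was -0.00 ± 0.13 in OAP2 (95% interval -0.29 to 0.29) and 0.13 ± 0.13 in Oxa (-0.15 to 0.42).

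Bak1 (chromosome 17, 27019810 to 27029009) had an FPKM of 17.04, 17.92 and 17.63 in OAP2, 19.66, 19.84 and 19.04 in Oxa, 15.64, 15.90 and 16.66 in APAP, and 16.29, 21.33 and 16.47 in PBS. The 3 Oxa libraries were above the OAP2, APAP, PBS 1 and PBS 3 libraries, and PBS 2 was the highest of all 12. Oxa against PBS gave a log2 fold change of 0.12 ± 0.11 with all libraries (adjusted p = 0.499) and 0.26 ± 0.08 without PBS 2 (0.029). The antisense gene models Ggnbp1 and Gm50253 cover the locus, with FPKM up to 0.34 and 2.22, and the sources used here do not say on which strand reads were counted.

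Among the BH3-only members, Bcl2l11, which encodes BIM and lies on chromosome 2 from 128126038 to 128162547, was highest with Oxa. Its FPKM was 3.58, 3.57 and 2.40 in OAP2, 3.88, 3.73 and 3.63 in Oxa, 2.62, 2.49 and 2.50 in APAP, and 2.36, 2.94 and 2.01 in PBS. All Oxa libraries lay above all others, OAP2 1 and OAP2 2 came next, and OAP2 3 lay within the PBS range and below APAP.

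Bcl2l11 rose 1.54-fold in Oxa libraries relative to PBS (log2 fold change 0.62 ± 0.17, 95% interval 0.27 to 0.98, adjusted p = 0.0315), with means of 3.75 ± 0.126 FPKM in Oxa and 2.44 ± 0.47 FPKM in PBS. Without PBS 2 the rise was 1.72-fold (0.78 ± 0.16, adjusted p = 0.00342). The call was lost without Oxa 1 (0.0966), Oxa 2 (0.0966), Oxa 3 (0.0658), PBS 1 (0.0799) or PBS 3 (0.108), with no filter (0.0744) and with only the 6 libraries compared (0.0642).

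In OAP2 libraries the log2 fold change of Bcl2l11 against PBS was 0.39 ± 0.17 and did not pass (adjusted p = 0.194). It passed without PBS 2 (0.55 ± 0.16, 0.0311) and without OAP2 3 (0.56, 0.0368). OAP2 against Oxa gave -0.23 ± 0.16, with an interval of -0.59 to 0.12, so a difference between these drugs was not shown for Bcl2l11. APAP against PBS gave 0.09 ± 0.17.

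Bid, whose protein links death receptors to mitochondria once cut by caspase-8 (chromosome 6, 120891930 to 120916853), had an FPKM of 11.31, 11.14 and 11.61 in OAP2, 11.90, 13.31 and 14.36 in Oxa, 10.28, 10.02 and 10.05 in APAP, and 9.76, 12.93 and 8.92 in PBS. Oxa lay above OAP2 and OAP2 above APAP in every library, while the PBS libraries reached from below APAP to the middle of Oxa through PBS 2. The log2 fold change of Bid in Oxa against PBS was 0.33 ± 0.13 with all libraries (adjusted p = 0.113) and 0.50 ± 0.10 without PBS 2 (0.00231). In OAP2 against PBS it was 0.12 ± 0.13 with all libraries (0.661) and 0.29 ± 0.10 without PBS 2 (0.0522). The last 913 bases of Bid overlap the antisense gene Bcl2l13, at 6.79 to 8.33 FPKM. The predicted gene Gm44260, on the same strand, covers 2094 bases of Bid, at 0.27 to 0.82 FPKM. The antisense Gm17812 covers 318 bases, at 0.03 to 1.55 FPKM.

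Bad, a sensor of growth factor signals, and Bbc3, a known target of p53 that encodes PUMA, passed no test with or without PBS 2. Bad (chromosome 19, 6941861 to 6951899) averaged 6.43 ± 1.53 FPKM in OAP2, 6.27 ± 0.2 in Oxa, 5.54 ± 0.863 in APAP and 6.2 ± 0.104 in PBS (SD, n = 3 each). The OAP2 spread came from OAP2 3, at 8.14 FPKM, the highest of the 12. The antisense gene Gpr137, at 1.94 to 4.45 FPKM, overlaps 620 bases of Bad. Bbc3 (chromosome 7, 16308393 to 16318205) averaged 4.52 ± 0.33 FPKM in OAP2, 4.71 ± 0.354 in Oxa, 4.18 ± 0.37 in APAP and 3.97 ± 0.442 in PBS, and its libraries overlapped between all pairs of groups except Oxa against PBS. Pmaip1 (chromosome 18, 66458533 to 66465565), which encodes NOXA, was at a count of 0 in 10 libraries, at 3 counts in APAP 3 and at 11 counts in PBS 2. A count of 0 allows up to 3 counts in a library, so a lower level than that, or a difference between the groups, was not detectable for Pmaip1 at this depth.

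The order of the levels was the same in all groups for Mcl1, Bax and Bak1 at the top and for Bad, Bbc3, Bcl2l11 and Pmaip1 at the bottom. FPKM is scaled to length, so levels can be set side by side between genes. Between them, Bcl2l1, Bid and Bcl2l2 changed places. In OAP2 the order of mean levels was Bid at 11.4, Bcl2l2 at 9.22 and Bcl2l1 at 8.37 FPKM, and the ranges of Bcl2l2 and Bcl2l1, and of Bcl2l1 and Bad, overlapped. In Oxa it was Bid at 13.2, Bcl2l1 at 12.9 and Bcl2l2 at 8.27 FPKM, and Bid and Bcl2l1 overlapped. In APAP it was Bcl2l1 at 10.7, Bid at 10.1 and Bcl2l2 at 9.65 FPKM, with both neighbouring pairs overlapping. In PBS it was Bcl2l1 at 13.1, Bid at 10.5 and Bcl2l2 at 9.5 FPKM, and both neighbouring pairs overlapped. The bottom 4 were apart from each other in all groups.

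Summed over roles, the 3 anti-apoptotic members reached 58.9 ± 1.35 FPKM in OAP2, 58.1 ± 0.551 in Oxa, 68.3 ± 1.5 in APAP and 71.9 ± 7.25 in PBS. All OAP2 and Oxa libraries, at up to 60.3 FPKM, were below all APAP and PBS libraries, at 64.6 FPKM and more. The composition differed between OAP2 and Oxa, since Mcl1 made up 67.7% to 72.9% of the sum in OAP2 and 62.1% to 64.3% in Oxa. The ratio of Mcl1 to Bcl2l1 was 4.98 ± 0.529 in OAP2, 2.86 ± 0.273 in Oxa, 4.47 ± 0.18 in APAP and 3.86 ± 0.649 in PBS. These sums and ratios restate the members' own values and were not tested.

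The ratio of Bax to Bcl2l1 was 3.13, 2.23 and 3.42 in OAP2, 1.91, 2.00 and 2.29 in Oxa, 2.16, 1.79 and 2.05 in APAP, and 1.80, 2.31 and 1.66 in PBS. OAP2 2 lay within the range of the other groups, and OAP2 1 and OAP2 3 lay above all of them. The ratio of Bcl2l11 to Mcl1 was 0.102 ± 0.00427 in Oxa and 0.0501 ± 0.0132 in PBS, with every Oxa library above every PBS library. In OAP2 it was 0.087 and 0.0874 in libraries 1 and 2 but 0.0572 in library 3, below PBS 2 at 0.0639.

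**Figure D2:**
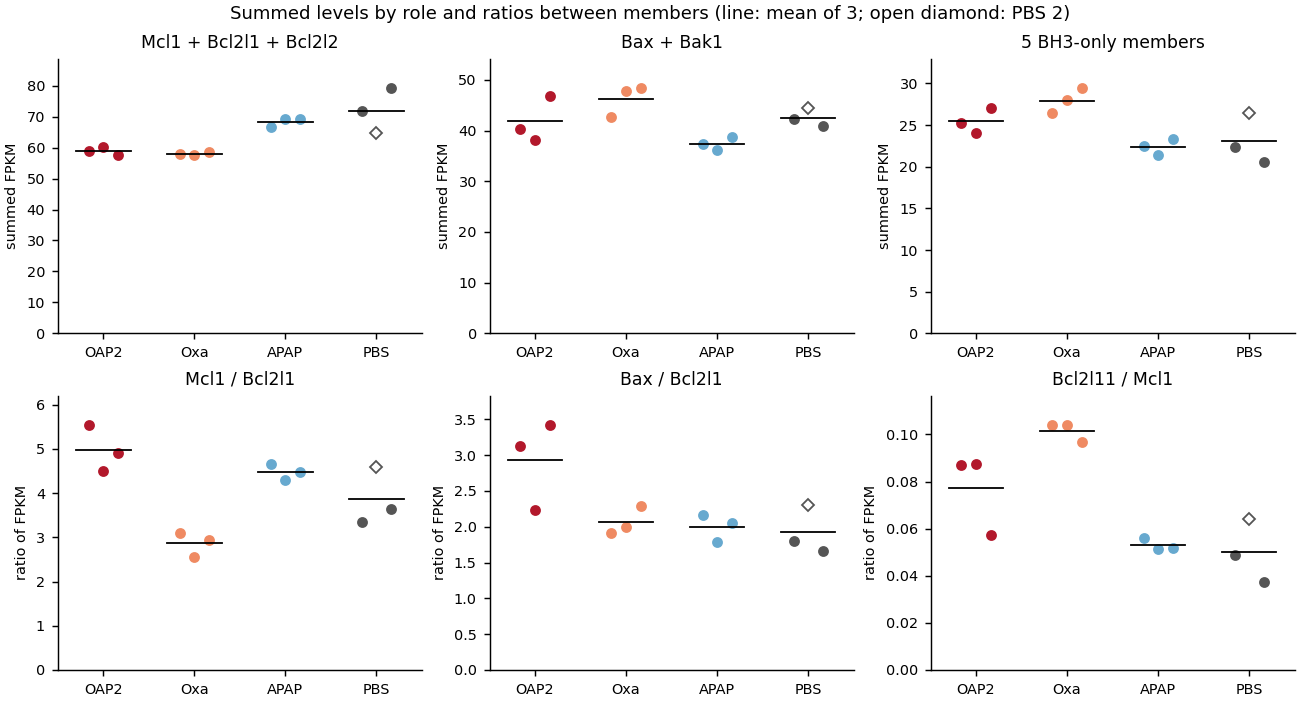
Summed FPKM by role (top) and ratios of FPKM between members (bottom) in each library, groups OAP2, Oxa, APAP and PBS from left to right, lines at the mean of 3 and PBS 2 as an open diamond. The anti-apoptotic sum is 57.6 to 60.3 in OAP2 and 57.7 to 58.7 in Oxa, below APAP and PBS, and the ratio of Bcl2l11 to Mcl1 is highest in Oxa, at 0.0966 to 0.104.

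The counts of members called are set beside the share called over all genes. In OAP2 against PBS, 1 of 9 members was called, Bcl2l1, where the test called 5.25% of all genes, and the members' median log2 fold change was -0.00, as over all genes. Without PBS 2 it called Mcl1, Bcl2l1 and Bcl2l11, 3 of 9, against 16.4% of all genes. In Oxa against PBS, 2 of 9 were called, Mcl1 and Bcl2l11, against 10.1% of all genes, with a median of 0.12 for the members and -0.01 over all genes. Without PBS 2 it called 4 of 9, Mcl1, Bak1, Bid and Bcl2l11, against 25.5% of all genes. The counts rest on 9 genes, and nothing about the family is read from them.

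APAP against PBS called 0 of 9 members in edgeR, 0 at an unadjusted p below 0.05, and 0 in DESeq2 and limma, where edgeR called 0.0166% of all genes. Without PBS 2 it also called 0, with 1 at an unadjusted p below 0.05 (Bcl2l1), against 0.0249% of all genes. With all libraries the 95% intervals of the 9 log2 fold changes all included 0, that of Bcl2l1 running from -0.54 to 0.06. Without PBS 2 the interval of Bcl2l1 ran from -0.63 to -0.16 (adjusted p = 0.22). In OAP2 against Oxa, 1 of 9 was called, Bcl2l1, against 12.9% of all genes, and the same 1 without PBS 2, against 22.8%. OAP2 against APAP called 0 of 9 in edgeR and in limma and 2 at an unadjusted p below 0.05, Mcl1 and Bcl2l1, where 0.474% of all genes were called. Mcl1 was lower in OAP2 than in APAP by DESeq2 (adjusted p = 0.0395) and, in edgeR without PBS 2, both Mcl1 (-0.24 ± 0.06, 0.0365) and Bcl2l1 were, against 7.61% of all genes.

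OAP2 was also set beside the sum of the Oxa and APAP effects on the log2 scale. The departure was called for 0 of 9 members in edgeR, in DESeq2 and in limma, and for 0 at an unadjusted p below 0.05 in edgeR, where 0.548% of all genes were called. Without PBS 2 edgeR again called 0, with 3 at an unadjusted p below 0.05 (Mcl1, Bid and Bcl2l11), against 5.03% of all genes. For Bcl2l1 it was -0.38 ± 0.20 (95% interval -0.81 to 0.05, adjusted p = 0.391), for Bcl2l11 -0.33 ± 0.23 (0.561) and for Mcl1 0.17 ± 0.11 (0.511). With all libraries, the 95% intervals of all 3 included 0. Without PBS 2 those of Mcl1 (0.01 to 0.42) and Bcl2l11 (-0.94 to -0.03) did not, at adjusted p = 0.205 for Mcl1 and 0.195 for Bcl2l11.

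**Figure D3:**
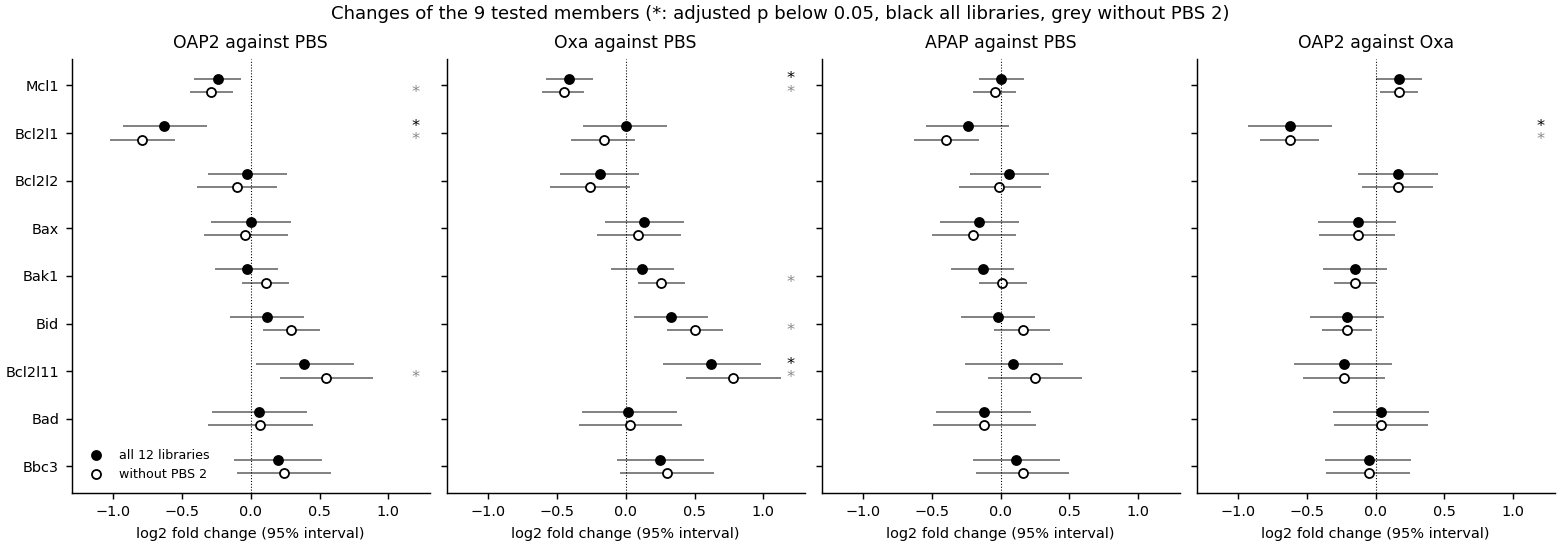
Log2 fold changes of the 9 tested members with 95% intervals in 4 comparisons, filled points with all 12 libraries and open points without PBS 2; stars mark an adjusted p below 0.05. With all libraries the stars stand at Bcl2l1 in OAP2 against PBS (-0.63) and OAP2 against Oxa (-0.62) and at Mcl1 (-0.41) and Bcl2l11 (0.62) in Oxa against PBS.

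The 4 called contrasts differed in how far they depended on single libraries. Of the 12 fits that left out 1 library each, the call of Mcl1 in Oxa against PBS remained in 12, that of Bcl2l1 in OAP2 against Oxa in 10, that of Bcl2l1 in OAP2 against PBS in 9 and that of Bcl2l11 in Oxa against PBS in 7. The sign of the change was the same in all of these fits.

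**Figure D4:**
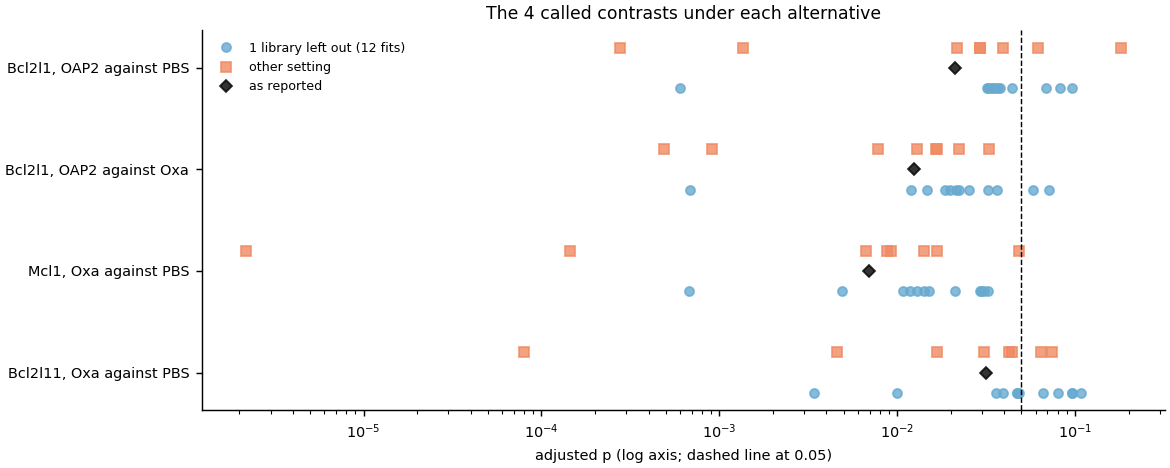
Adjusted p of the 4 called contrasts (log axis, dashed line at 0.05) as reported (black), with 1 library left out (blue) and under other settings (orange). The values for Mcl1 stay at or below 0.0482, while those for Bcl2l11 reach 0.108 and those for Bcl2l1 reach 0.181 in OAP2 against PBS and 0.0718 in OAP2 against Oxa.

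The genes whose levels followed Mcl1 most closely over the 12 libraries, by Pearson correlation of log2 CPM, were Ptpn4 (r = 0.976), a tyrosine phosphatase gene, Uspl1 (0.95), the long noncoding Mirt1 (0.948), the RNA helicase gene Ddx42 (0.948) and the tRNA-modifying Trit1 (0.947). Mirt1 averaged 19.3 FPKM in OAP2, 11.8 in Oxa, 28.4 in APAP and 27.8 in PBS. Those most like Bcl2l1 were Sh3bp4 (0.946), the MAP kinase phosphatase gene Dusp7 (0.944), Cdc42ep1 (0.94), the Polycomb-like Phf19 (0.935) and the repressor gene Zeb2 (0.93). Sh3bp4 averaged 11.6 FPKM in OAP2, 18.9 in Oxa, 15.7 in APAP and 17.5 in PBS. These correlations describe 12 libraries that fall in 4 groups and include PBS 2.

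Of 15 other BCL2 family genes, 14 were in the table and 7 passed the filter. Bcl2a1a, Bcl2a1b, Bcl2a1d, Bik, Bmf, Hrk and Bcl2l14 did not, with a highest FPKM of 1.2, for Bcl2a1b. Bcl2 itself averaged 3.77 FPKM in OAP2, 4.42 in Oxa, 4.2 in APAP and 3.8 in PBS, below Mcl1, Bcl2l1 and Bcl2l2 in every group. In Oxa against PBS, 2 of 7 rose and 0 fell in edgeR, which called 10.1% of all genes. They were Bnip3 (0.81 ± 0.24, adjusted p = 0.0466) and Bnip3l (0.39 ± 0.11, 0.0455), which encode mitochondrial receptors for mitophagy. Bnip3 was at 10.33, 6.42 and 14.58 FPKM in Oxa and 6.39, 6.34 and 5.07 in PBS, so Oxa 2 lay at the PBS level. The call of Bnip3 remained in 3 of 12 fits that left out 1 library (without OAP2 3, Oxa 2 or PBS 2; adjusted p up to 0.203) and that of Bnip3l in 1 (without OAP2 3; up to 0.194). DESeq2 called both and also Bcl2l15, and limma called 0. In edgeR, Bcl2l15 had a log2 fold change of -0.57 ± 0.21 with all libraries (adjusted p = 0.0997) and -0.18 ± 0.12 without PBS 2 (0.276). In the other pairwise contrasts 0 of 7 were called by edgeR, DESeq2 or limma, with 0 or 1 at an unadjusted p below 0.05. The smallest p values in OAP2 against PBS were those of Bok (-0.36 ± 0.16, adjusted p = 0.228) and Bnip3 (0.45 ± 0.24, 0.306).

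Of 20 genes listed as mitochondrial death machinery, 19 were tested and Birc3, at up to 0.85 FPKM, was not. Where 12.9% of all genes were called in OAP2 against Oxa, 1 of 19 fell and 0 rose. It was Vdac1, a channel of the outer mitochondrial membrane, at 69.50, 76.38 and 80.18 FPKM in OAP2 and 95.71, 102.83 and 100.71 in Oxa (-0.40 ± 0.12, adjusted p = 0.0405). All OAP2 libraries lay below all Oxa libraries, yet the call remained in 3 of 12 fits that left out 1 library (without OAP2 3, PBS 2 or PBS 3), with adjusted p up to 0.18. In the other pairwise contrasts edgeR, DESeq2 and limma each called 0 of 19, with 0 to 5 at an unadjusted p below 0.05 in edgeR. Examples are Endog (-0.59 ± 0.29, adjusted p = 0.263) and Vdac2 (-0.22 ± 0.11, 0.273) with the smallest p in OAP2 against PBS, and Casp8 (0.40 ± 0.16, 0.115) and Aifm1 (0.37 ± 0.14, 0.116) in Oxa against PBS.

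Of 18 genes listed as regulators of the members, 17 were in the table and all 17 were tested. Ddit3, which encodes CHOP, a stress-induced factor known to repress Bcl2 and to raise Bcl2l11, rose in OAP2 and in Oxa libraries. Its FPKM was 54.32, 50.45 and 55.67 in OAP2, 43.99, 42.94 and 46.13 in Oxa, 36.45, 30.68 and 35.36 in APAP, and 30.92, 34.72 and 31.27 in PBS. Every OAP2 library lay above every Oxa library and every Oxa library above every APAP and PBS library. The log2 fold change was 0.74 ± 0.09 in OAP2 against PBS (adjusted p = 0.000654), 0.46 ± 0.09 in Oxa against PBS (0.00766) and 0.62 ± 0.09 in OAP2 against APAP (0.0152). The calls of the first and second of these contrasts held in all 12 fits that left out 1 library, and that of OAP2 against APAP was lost without OAP2 1, OAP2 2, APAP 1, APAP 2 or APAP 3 (up to 0.0896). OAP2 against Oxa gave 0.28 ± 0.09 for Ddit3 (0.0578), and 0.28 ± 0.08 without PBS 2 (0.0218).

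Cdkn1a encodes the cell cycle inhibitor p21 and is known as a p53 target, as Bbc3 is. Whether these cells hold working p53 was not tested. Cdkn1a was lowest with Oxa. Its FPKM was 5.25, 4.82 and 3.70 in OAP2, 3.02, 2.24 and 2.98 in Oxa, 4.43, 3.45 and 4.07 in APAP, and 4.68, 5.43 and 3.73 in PBS. All Oxa libraries lay below all others. The log2 fold change was -0.74 ± 0.18 in Oxa against PBS (adjusted p = 0.0229) and 0.75 ± 0.18 in OAP2 against Oxa (0.0187). The first call was lost without Oxa 2, Oxa 3 or PBS 1 (up to 0.0966) and the second without OAP2 1, OAP2 2 or Oxa 2 (up to 0.0783).

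In OAP2 against Oxa, 2 of the 17 genes listed as regulators fell and 1, Cdkn1a, rose, where 12.9% of all genes were called. E2f1, a cell cycle transcription factor, averaged 5.19 ± 0.559 FPKM in OAP2 and 8.21 ± 0.392 in Oxa (-0.66 ± 0.13, adjusted p = 0.00603), and its call held in all 12 fits that left out 1 library. Trp53, the gene of p53, averaged 17.6 ± 2.2 FPKM in OAP2 and 22.6 ± 0.638 in Oxa (-0.36 ± 0.10, 0.0316). Its call was lost without OAP2 2, OAP2 3, Oxa 1, Oxa 2 or Oxa 3 (up to 0.122). These are levels of RNA, and p53 protein was not measured. APAP against PBS called 0 of 17 in edgeR, DESeq2 and limma, with 0 at an unadjusted p below 0.05 in edgeR. The departure of OAP2 from the summed effects was called for 0 of 17 in edgeR and in limma, with 3 at an unadjusted p below 0.05 in edgeR, and for 1, Cdkn1a, in DESeq2. For E2f1 it was -0.57 ± 0.18 in edgeR with all libraries (adjusted p = 0.172) and was called without PBS 2 (-0.68 ± 0.17, 0.0346), 1 of 17 against 5.03% of all genes.

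**Figure D5:**
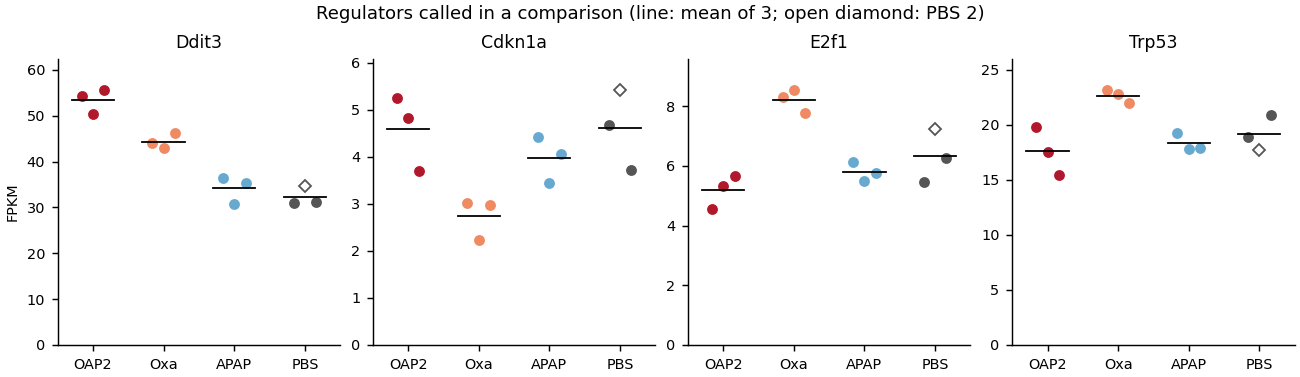
FPKM of Ddit3, Cdkn1a, E2f1 and Trp53 in each library, groups OAP2, Oxa, APAP and PBS from left to right, lines at the mean of 3 and PBS 2 as an open diamond. Ddit3 runs from 50.45 to 55.67 in OAP2 and 42.94 to 46.13 in Oxa above APAP and PBS, and the Oxa libraries are the lowest for Cdkn1a and the highest for E2f1 and Trp53.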

How the data were processed

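RNA was sequenced in 12 libraries of 4T1 cells. Per the labels' protocols, poly(A) RNA was taken from Trizol extracts and made into strand-marked (dUTP) libraries read in pairs. The submitters' processing notes list build mm9 and the tools HISAT2 2.2.1, StringTie 2.1.6, cutadapt 1.9, edgeR and DESeq2, with no roles. Of 29864 genes matched to GENCODE M21, 91.1% have the GRCm38 position, and so do all 10 members, so positions are given in GRCm38. Per the file headers, each gene of the deposited table has an FPKM and a count in each library. The FPKM values were scaled by the authors to length and library size. The deposited counts are whole numbers not scaled between libraries, taken here as estimated counts. The columns named CON were matched to the samples titled PBS by inference, since no other group lacks a drug.

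Counts of the 12036 genes that reached an FPKM of 1 in 3 or more libraries were fitted in edgeR 4.0.16 (R 4.3.3), with TMM scaling and 1 mean per group over all 12 libraries, by the 2-sided quasi-likelihood test, with calls where the p adjusted over all genes (Benjamini-Hochberg) was below 0.05. SE was approximated as the log2 fold change over the root of F. Log2 CPM used a prior count of 2. Where a fit leaves 2 libraries in a group, their spread is shared with the other groups. Genes had a common biological coefficient of variation of 18.1%. Simulated data were used to test the fit. Alternatives were RLE scaling, DESeq2 1.42.0, limma 3.58.1 on log2(FPKM + 1) and log2(FPKM + 0.1), no filter, a replicate block, only the 6 libraries compared and each library left out.

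The members and lists were chosen with earlier results of these data known. All members are named. From each other list, called genes are named, at most 4 per contrast and smallest p first, or at most 2 where none is called. Where 1 name has 2 identifiers, as Ddit3 does, the one with more counts was used. Libraries with the same replicate number did not deviate together (18 pairs, correlations of -0.152 to 0.155), so numbers were not taken as pairs. Promoter windows come from RefSeq (GRCm38.p6). Single values of some genes of the lists are not reported here.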

Additional observations from a re-analysis of the deposited data

How the results depend on the processing

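With all alternatives counted, 1020 of the members' values kept direction and side of the threshold, 25 passed it newly, 31 no longer passed and 52 changed sign. These counts do not hold the departure from the summed effects for every member, and the sign changes given below leave it out. Over the alternatives that departure ran from -0.14 to 0.13 for Bax, -0.17 to 0.06 for Bak1 and -0.05 to 0.29 for Bad, and none was called. Counts of members called among the 4 groups, in OAP2 against PBS and in Oxa against PBS were 3, 1 and 2; with no filter on low values they were 1, 0 and 1. With only the 6 libraries compared, 0 were called in OAP2 against PBS and 1 in Oxa against PBS. DESeq2 called 2 in OAP2 against PBS and 1 in OAP2 against APAP. Leaving out 1 library gave 1 to 5 among the 4 groups, 0 to 3 in OAP2 against PBS, 1 to 4 in Oxa against PBS, 0 to 1 in OAP2 against Oxa and 0 to 2 in OAP2 against APAP, the highest of these without PBS 2, except in OAP2 against Oxa. With PBS 2 and OAP2 3 both left out, an alternative chosen after seeing the data, the counts were 7 among the 4 groups, 3 in OAP2 against PBS, 5 in Oxa against PBS, 3 in OAP2 against Oxa and 3 in OAP2 against APAP, where 5732, 2838, 4258, 3426 and 1438 of all 12036 genes were called. Over all genes, OAP2 against PBS called 632 with all libraries, 1976 without PBS 2, 1267 in DESeq2, 360 with no filter and 38 with only the 6 libraries, and Oxa against PBS called 1217, 3066, 2020, 701 and 523. The cause was not tested.

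The replicate block kept all counts of members called (3, 1, 2, 0, 1, 0 and 0 over the 7 comparisons); Bcl2l1 in OAP2 against PBS had adjusted p = 0.0394 under it. The numbers do not pair the libraries.

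Signs changed only for log2 fold changes that were not called. In OAP2 against PBS, Bax was 0.008 with RLE scaling and in DESeq2, 0.002 with no filter and 0.001 with only the 6 libraries. With PBS 2 and OAP2 3 both left out, Bcl2l2 was 0.059, Bak1 0.107 and Bad -0.134 there, Bcl2l2 -0.007, Bak1 0.014 and Bid 0.156 in APAP against PBS, Bad -0.168 in OAP2 against Oxa, and Bcl2l2 0.066, Bax -0.003 and Bad -0.019 in OAP2 against APAP. In Oxa against PBS, Bcl2l1 was 0.008 with no filter, 0.003 in limma on log2(FPKM + 1) and 0.004 on log2(FPKM + 0.1). In APAP against PBS, Mcl1 was -0.005 with no filter, -0.036 and -0.037 in the same limma fits and -0.043 with both libraries left out. Over the fits that left out 1 library, the OAP2 against PBS values ran from -0.128 to 0.13 for Bcl2l2, -0.16 to 0.108 for Bax, -0.105 to 0.112 for Bak1, -0.002 to 0.294 for Bid and -0.143 to 0.193 for Bad. For Oxa against PBS they ran from -0.162 to 0.083 for Bcl2l1 and -0.025 to 0.039 for Bad. For APAP against PBS they ran from -0.043 to 0.046 for Mcl1, -0.007 to 0.149 for Bcl2l2, -0.204 to 0.014 for Bak1, -0.141 to 0.156 for Bid and -0.041 to 0.252 for Bcl2l11. For OAP2 against Oxa they ran from -0.168 to 0.169 for Bad and -0.114 to 0.015 for Bbc3, and for OAP2 against APAP from -0.192 to 0.066 for Bcl2l2, -0.003 to 0.265 for Bax and -0.019 to 0.318 for Bad.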

Other observations

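Without PBS 2, further genes listed as mitochondrial death machinery passed the test. In Oxa against PBS, Aifm1, which encodes apoptosis-inducing factor (0.61 ± 0.09, adjusted p = 0.000546), and Vdac1 (0.40 ± 0.10, 0.00871) rose. In OAP2 against PBS, Aifm1 rose (0.34 ± 0.09, 0.0219) and Htra2, which encodes a protease released from mitochondria, fell (-0.44 ± 0.08, 0.00386). In OAP2 against Oxa, Htra2 (-0.39 ± 0.08, 0.00307), Vdac1 (-0.40 ± 0.09, 0.00498) and Aifm1 (-0.27 ± 0.08, 0.0272) fell. These genes are examples and not all that passed. The share of all genes called in these 3 contrasts without PBS 2 was 25.5% for Oxa against PBS, 16.4% for OAP2 against PBS and 22.8% for OAP2 against Oxa, so nothing is read from how many passed.

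Without PBS 2, the test called 4 of 17 genes listed as regulators in OAP2 against PBS (3 rose and 1 fell). It called 9 in Oxa against PBS (7 rose and 2 fell) and 8 in OAP2 against Oxa (3 rose and 5 fell). The shares of all genes in these contrasts are those just given. The genes that follow were not called with all libraries in the contrast named. Trib3, a pseudokinase gene induced by CHOP, rose in OAP2 (0.59 ± 0.10, adjusted p = 0.00252) and in Oxa (0.48 ± 0.10, 0.00509) against PBS. Jun fell in OAP2 (-0.58 ± 0.13, 0.00806) and in Oxa (-0.61 ± 0.13, 0.00379) against PBS, and Atf4, a partner of CHOP, rose in OAP2 (0.43 ± 0.10, 0.00967). In Oxa against PBS, Stat3 (0.53 ± 0.13, 0.00783), E2f1 (0.50 ± 0.12, 0.0105), Akt1 (0.35 ± 0.10, 0.0193), Foxo3 (0.33 ± 0.11, 0.0386) and Mdm2 (0.27 ± 0.09, 0.0427) also rose. In OAP2 against Oxa, Akt1 (-0.40 ± 0.09, 0.00608), Pim1 (-0.41 ± 0.13, 0.0346) and Stat3 (-0.34 ± 0.11, 0.044) fell and Atf4 rose (0.25 ± 0.09, 0.0499). The OAP2 and Oxa contrasts share their PBS libraries.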
